A study of Mus musculus with 39 samples.

Results

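The 10 genes described here lie in a stretch of 13.4 Mb on mouse chromosome 7 and were unlike between a control and a Kdm6a-deficient single-cell library of the testis. They are Clasrp, Map4k1, Zfp59, Npas1, Zfp607b, Psg19, Zfp940, Mrps12, Eml2 and Fam98c, 10 of the 32285 genes in the single-cell gene list and of the 15411 with at least 200 UMIs (unique molecular identifiers, each standing for 1 captured RNA molecule) over both libraries. They were listed by symbol because their levels differed between these libraries, so the differences below are a description of how they were chosen and carry no test. Both libraries came from dissociated whole testis. The control carried the genotype Kdm6a fl/y; Cre-, and the conditional knockout (cKO) Kdm6a fl/y; Ddx4-Cre+, so both carry the floxed allele and only the cKO has the Cre, which the Ddx4 promoter drives in germ cells and not in the somatic cells of the testis. The labels give neither the age nor the number of animals behind a library, and no strain. With 1 library per genotype, genotype, animal, strain background and library preparation cannot be told apart, and every interval below covers counting error only.

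Kdm6a, also called Utx, encodes a demethylase that removes methyl groups from lysine 27 of histone H3, a mark of silenced genes. In the testis, spermatogonia enter meiosis as spermatocytes, which divide into round spermatids that then elongate, and a large part of the genome is transcribed in the late spermatocytes and round spermatids. The 10 genes have no common pathway. Clasrp encodes an arginine- and serine-rich protein that binds the kinase CLK4 and is linked to splicing. Zfp59, Zfp607b and Zfp940 encode zinc-finger proteins of a large family that stands in clusters on chromosome 7. Map4k1 encodes a kinase best known for restraining T-cell receptor signalling, Npas1 a bHLH-PAS transcription factor of neurons, and Psg19 a pregnancy-specific glycoprotein of the placenta. Mrps12 encodes a protein of the small mitochondrial ribosomal subunit, Eml2 a microtubule-associated protein, and Fam98c a member of the FAM98 family.

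The members span chr7:16455721-29853695 (GRCm38), from Npas1 to Zfp940, a stretch of 13.4 Mb. They stand in 2 groups. The lower coordinates of Npas1, Psg19, Eml2 and Clasrp lie within 3.13 Mb of each other. Then come Zfp607b, Zfp59, Mrps12, Map4k1, Fam98c and Zfp940. From the lower coordinate of Clasrp to that of Zfp607b there are 8.09 Mb. Clasrp occupies chr7:19581038-19604517 on the minus strand, and Map4k1 chr7:28982050-29003279 on the plus strand. Several of them begin beside a neighbour read in the opposite direction. Only 159 bases separate Map4k1 from Eif3k, a translation initiation subunit. Between Mrps12 and Sars2, the mitochondrial seryl-tRNA synthetase, there are 135 bases, and between Zfp607b and the kinase gene Map3k10 there are 30.

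The bases before 4 of the start sites are shown because these are the 4 members with an open chromatin peak there in every library. They are from RefSeq on GRCm38.p6, in the gene's own direction, and are limited to bases that lie in no annotated gene. Entries existed for 9 of the 10 members, and Psg19 is named only. Capitals mark CCAAT or its reverse ATTGG (the NF-Y box), TGACG or CGTCA (the CRE half-site) and GGGCGG or CCGCCC (the GC box). Clasrp is chr7:19604518-19604736 on the minus strand, Map4k1 chr7:28981891-28982049 on the plus strand, Mrps12 chr7:28741822-28741956 on the minus strand and Zfp607b chr7:27674631-27674660 on the plus strand.
Clasrp: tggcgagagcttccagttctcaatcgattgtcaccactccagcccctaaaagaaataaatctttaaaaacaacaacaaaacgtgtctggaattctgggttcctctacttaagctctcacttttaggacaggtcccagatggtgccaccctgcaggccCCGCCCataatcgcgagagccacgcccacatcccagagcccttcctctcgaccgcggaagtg
Map4k1: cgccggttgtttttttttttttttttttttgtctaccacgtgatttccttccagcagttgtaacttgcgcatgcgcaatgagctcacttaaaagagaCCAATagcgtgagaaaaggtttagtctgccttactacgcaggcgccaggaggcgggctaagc
Mrps12: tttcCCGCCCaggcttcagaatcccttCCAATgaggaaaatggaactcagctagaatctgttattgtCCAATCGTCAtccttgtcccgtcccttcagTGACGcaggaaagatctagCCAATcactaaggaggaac
Zfp607b: cgcgatgccgcctgggagttgtagtcccaa
The stretch between Mrps12 and Sars2 holds 3 NF-Y boxes, 2 CRE half-sites and 1 GC box, none of which share a base. Of 32851 RefSeq windows cut to the same 135 bases, 22.9% hold an NF-Y box, 12.5% a CRE half-site and 27.7% a GC box. The Map4k1 stretch holds 1 NF-Y box, found in 25.4% of windows of 159 bases. Clasrp holds 1 GC box, found in 31.7% of windows of 219 bases, and the 30 bases of Zfp607b hold none of the letters searched. The windows lie directly before start sites and are not limited to bases outside genes. The Clasrp stretch ends 31 bases before one of its start sites and 156 before another, so its window share is from an unlike place. These matches describe the letters and no binding was measured at them.

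At least 3000 UMIs were counted in 11252 control and 8520 cKO barcodes, with medians of 8410.5 and 8499 UMIs. These barcodes carried 132867391 and 99072889 UMIs. The libraries shared 30 of these barcodes. Levels are given as UMIs per 1000000 UMIs of the barcodes used (CPM). Kdm6a itself, at 2.29 CPM in the control and 0.757 in the cKO library, was lower in the cKO by 1.60 on the log2 scale. Early spermatocytes held 81 Kdm6a UMIs in the control and 5 in the cKO, so the labels and the targeted gene go together. The files do not say which exons the UMIs came from. A gene is called past the fold when its log2 ratio of cKO over control is at least 0.5 in size, and the median ratio of all 15411 measured genes was -0.02. All markers of the somatic lists were detected in both libraries. The 4 blood markers, all haemoglobin genes, summed to 22.1 CPM in the control and 10.5 in the cKO, the 6 Leydig markers to 164 and 165. Sertoli markers summed to 142 and 162 CPM, and peritubular myoid markers to 7.26 and 10.4. Macrophage markers summed to 20.3 and 17.2 CPM, and endothelial markers to 5.58 and 5.75. The 4 T-cell markers, which bear on Map4k1, summed to 1.96 and 1.48 CPM. The part of blood cells in the members' values was not tested.

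All 10 members were past the fold, 7 higher and 3 lower in the cKO library. Over all measured genes 1.75% were higher, 5.89% lower and 7.64% either. Since the members were chosen on this contrast, nothing is read from that count. Clasrp, Zfp59 and Zfp940 were the lower members, and Map4k1, Npas1, Psg19, Zfp607b, Eml2, Mrps12 and Fam98c the higher ones. The members nearest to the threshold were Fam98c at 0.71 and Mrps12 at 0.77. The list is not all that differs here: Gm4969 at -2.42, Lgals7 at -2.12 and Foxa3 at 1.18 lie in the same stretch of chromosome 7 and are not members.

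Clasrp was the member with the most UMIs among those that were lower. It had 17069 UMIs in the control and 3950 in the cKO library, or 128 against 39.9 CPM. This is a log2 ratio of -1.69 (95% interval -1.74 to -1.64), a level 3.22-fold lower in the cKO. The zinc-finger gene Zfp59 had 912 against 229 UMIs, or 6.86 against 2.31 CPM, a log2 ratio of -1.57 (-1.79 to -1.36). Zfp940 had 419 against 125 UMIs, or 3.15 against 1.26 CPM, a log2 ratio of -1.32 (-1.62 to -1.03). These 3 intervals lie wholly below the lower bound of the fold.

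Of the members that were higher in the cKO library, Map4k1 had the largest ratio. It had 4362 UMIs in the control and 9093 in the cKO library, or 32.8 against 91.8 CPM, a log2 ratio of 1.48 (1.43 to 1.54). Npas1 was scarce, with 259 against 507 UMIs and a log2 ratio of 1.39 (1.17 to 1.61). The placental gene Psg19 had 507 against 778 UMIs and a ratio of 1.04 (0.88 to 1.21). Both were thus found in the control testis too. The zinc-finger gene Zfp607b went from 20.8 to 40.3 CPM, a ratio of 0.95 (0.88 to 1.03). For Eml2 the levels were 3.63 and 6.75 CPM and the ratio 0.90 (0.73 to 1.07). The mitoribosomal gene Mrps12 stood at 37.9 and 64.4 CPM, a ratio of 0.77 (0.71 to 0.82). Fam98c, with 32144 and 39167 UMIs, had 242 and 395 CPM and a ratio of 0.71 (0.69 to 0.73). All 7 intervals lie above 0.5. These ratios also take in the stage shares, since round spermatids were 14.9% of control and 20.5% of cKO barcodes. With the same stage shares in both libraries, Map4k1 had 1.37, Npas1 1.17, Psg19 0.99 and Zfp607b 0.77. Fam98c then had 0.66, Eml2 0.62 and Mrps12 0.55.

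The barcodes were gated into stages by their marker genes, none of which is a member, with 50 UMIs over both libraries asked of a gene within a stage. In round spermatids (1675 control and 1745 cKO barcodes) all 10 members were past the fold in their direction, beside 1.7% of measured genes higher and 13.5% lower there. In late spermatocytes 6 of the 8 measured members were past it, beside 11% of all genes in either direction. The count was 6 of 9 in elongating spermatids (12%), 4 of 6 in early spermatocytes (22.6%) and 4 of 4 in spermatogonia (22%). Of 50 pairs of member and stage, 37 had enough UMIs, and 30 of these were past the fold in the gene's own direction. The remaining measured pairs lay inside the fold. Stages of 1 library share its RNA and are not replicates. Orders of level below are among these 5 stages only.

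**Figure D1:**
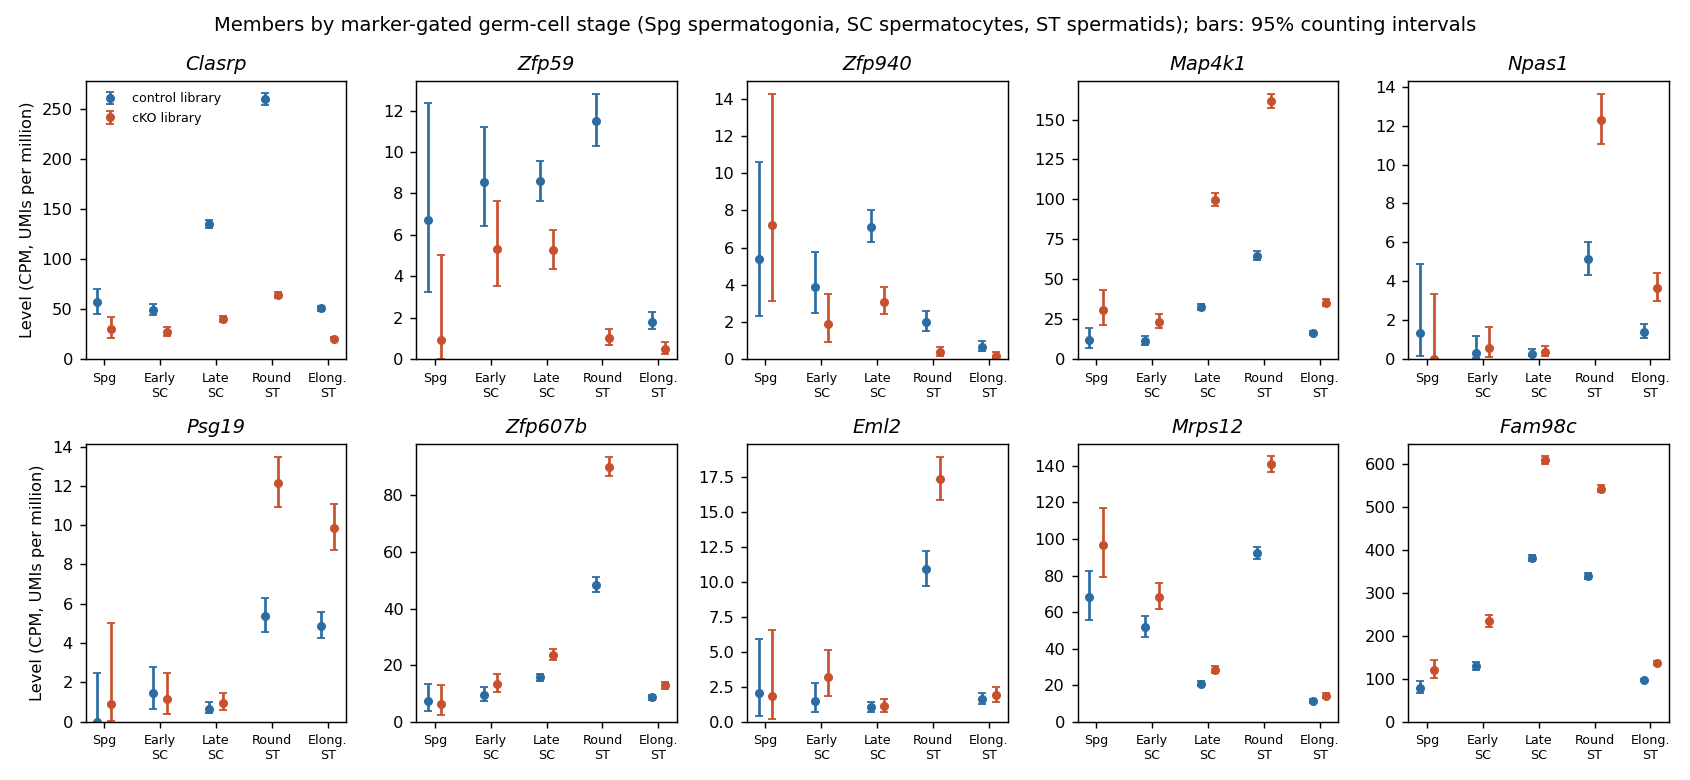
Level of each member in CPM (vertical axis, from 0, its own scale in each panel) in 5 marker-gated germ-cell stages, with the control library in blue, the cKO library in red and bars for 95% counting intervals. In round spermatids the 2 intervals stand apart in every panel, Clasrp at 260 and 63.8, Map4k1 at 64.7 and 161.

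Clasrp was highest in round spermatids in both libraries. Its level there was 260 CPM in the control and 63.8 in the cKO, a log2 ratio of -2.03 (-2.10 to -1.95). Late spermatocytes came next, with 135 and 40.0 CPM, and elongating spermatids held 50.6 and 20.5 CPM. In the control, spermatogonia (56.6 CPM), elongating spermatids and early spermatocytes (49.3 CPM) could not be ordered, since their intervals overlap. The ratio was smaller in early spermatocytes, at -0.87, and in spermatogonia, at -0.92 (-1.55 to -0.33). A Clasrp UMI was seen in 90.3% of control and 57.4% of cKO round spermatids, whose median depths were 13174 and 12138 UMIs. With every barcode thinned to 3000 UMIs, which left none out, the shares were 51.3% and 15.6%. Leydig-gated barcodes, with median depths of 8313 and 6746 UMIs, held a Clasrp UMI in 27.4% and 7.48% as counted and in 11.3% and 2.80% thinned, so the spermatid shares stand well above that level in both libraries.

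Zfp59 and Zfp940 were the lower members with the fewest UMIs. Among the stages with enough UMIs, the point value of each ratio was most extreme in round spermatids. In elongating spermatids Zfp940 had 29 and 4 UMIs, too few to be called, so its ratios in the spermatid stages could not be ordered. Zfp59 had 332 UMIs in control round spermatids and 30 in the cKO, or 11.5 against 1.03 CPM, a ratio of -3.49 (-4.08 to -2.94). In late spermatocytes it had 8.58 against 5.25 CPM, a ratio of -0.71 (-1.02 to -0.40). In the control the round-spermatid level of Zfp59 was above the late-spermatocyte level, and in the cKO library it was below it. Zfp940 was instead highest in late spermatocytes in the control, at 7.12 CPM against 3.07 in the cKO, and had 58 against 11 UMIs in round spermatids. Its 8 UMIs in the spermatogonia of each library were too few to compare. Thinned to 3000 UMIs, Zfp59 was seen in 54 of 1675 control and 5 of 1745 cKO round spermatids.

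Map4k1 was highest in round spermatids, then late spermatocytes in both libraries. Elongating spermatids (16.0 and 35.2 CPM) and spermatogonia (12.1 and 30.8 CPM) could not be ordered, since their intervals overlap. Round spermatids held 64.7 CPM in the control and 161 in the cKO, a ratio of 1.32 (1.24 to 1.40). Late spermatocytes held 32.4 and 99.7 CPM, a ratio of 1.62 (1.52 to 1.72). The shares of round spermatids with a Map4k1 UMI were 55.9% and 82.1% as counted and 16.4% and 37.3% thinned. Leydig-gated barcodes gave 10.4% and 17.8% as counted, and 2.83% and 8.41% thinned. In spermatogonia the counts were 18 and 34 UMIs and the ratio 1.34 (0.48 to 2.25). The 4 T-cell markers in the round-spermatid gate summed to 2.91 CPM in the control and 1.95 in the cKO, where 3 of the 4 were detected, and their part in the Map4k1 values was not tested.

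Npas1, Psg19 and Eml2 had, among the 5 stages, their highest point value in round spermatids in both libraries. Npas1 stood at 5.12 and 12.3 CPM there, Psg19 at 5.40 and 12.1, and Eml2 at 10.9 and 17.4, the control first. Psg19 stood close to this in elongating spermatids, with 4.87 and 9.84 CPM, and there had more UMIs in the control (210 against 156). Its intervals in round and elongating spermatids overlap in both libraries, so these stages could not be ordered. In late spermatocytes Npas1 had 10 and 8 UMIs, Psg19 24 and 23, and Eml2 37 and 26. All 3 ratios there had intervals that include 0, so no difference was detectable at that depth.

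Zfp607b, Mrps12 and Fam98c were measured in most stages. Zfp607b stood at 48.5 CPM in control round spermatids and 90.2 in the cKO, a ratio of 0.90 (0.80 to 0.99), and was past the fold in late spermatocytes and elongating spermatids as well, at 0.59 and 0.57. Mrps12 was high in round spermatids (92.2 and 141 CPM) and in spermatogonia (68.0 and 96.8 CPM) and low in elongating spermatids (11.4 and 14.2 CPM). Its ratio was 0.61 in round spermatids and inside the fold at 0.45 in late spermatocytes, 0.40 in early spermatocytes and 0.31 in elongating spermatids. In spermatogonia Mrps12 was past the fold on only 101 and 107 UMIs. The intervals of its levels there, 55.4 to 82.7 and 79.3 to 117 CPM, overlap. Fam98c was highest in late spermatocytes, with 381 CPM in the control and 608 in the cKO. Its ratio was 0.68 in late spermatocytes, 0.67 in round spermatids and 0.85 in early spermatocytes. In elongating spermatids it was 0.50, just inside the fold, with 97.1 and 137 CPM. Zfp607b was also just inside it in early spermatocytes, at 0.49 (-0.03 to 1.02).

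Barcodes with at least 300 and fewer than 2000 UMIs, which the rule sets apart, came from the same 2 libraries and are no independent check. All 10 members were past the fold in them in the same direction as above, beside 2.45% of measured genes higher, 5.75% lower and 8.2% either. Clasrp had a ratio of -1.70 there, Zfp59 -1.95 and Zfp940 -1.43. Map4k1 had 1.56, Npas1 1.11, Fam98c 0.86, Psg19 0.80, Zfp607b 0.78, and Mrps12 and Eml2 0.59 each. The point ratios of Npas1, Psg19, Zfp607b, Mrps12 and Eml2 were smaller than in the deep barcodes. Whether they differ beyond counting error was not tested. In barcodes with 1 to 99 UMIs, which hold mostly free RNA, Clasrp stood at 161 CPM in the control and 50.0 in the cKO. The Clasrp ratio there was -1.69. Map4k1 had 1.06, while Fam98c (0.49) and Mrps12 (0.32) were inside the fold, and the intervals of Zfp940, Npas1, Psg19 and Eml2 included 0. The estimated share of free RNA in elongating spermatids was 14.5% in the control and 8.62% in the cKO library. It equals the level of the 6 Leydig markers there, 7.47 and 5.24 CPM, over that in free RNA, 51.7 and 60.8. Other lists would give other shares. The Sertoli markers stood at 86.7 and 78.1 CPM against 184 and 197 in free RNA. The blood markers stood at 2.76 and 0.873 CPM against 440 and 556.

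**Figure D2:**
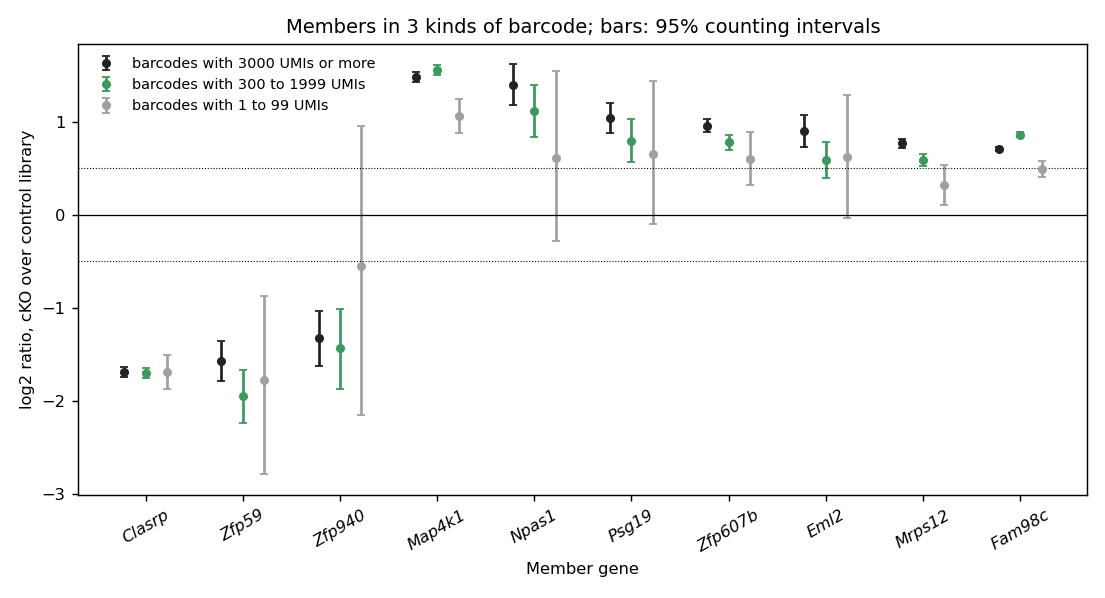
log2 ratio of cKO over control (vertical axis) for each member in barcodes of 3 depths, with 95% counting intervals and dotted lines at the fold of 0.5. Clasrp gave -1.69, -1.70 and -1.69 in deep, shallow and free-RNA barcodes, and the point of each member lies on one side of 0 in all 3.

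Leydig cells are a cell type in which the Ddx4-driven Cre is not expected. There were 106 control and 107 cKO barcodes in that gate. Clasrp, Mrps12 and Fam98c had at least 50 UMIs in it and all 3 were past the fold, beside 33.9% of all measured genes. Elongating-spermatid markers, which Leydig cells lack, put the share of free RNA in these barcodes at no more than 54.6% in the control and 46.4% in the cKO. Free RNA alone could then give up to 87.9 and 23.2 CPM of Clasrp, above the 38.3 and 13.1 CPM counted, so the Leydig value of Clasrp cannot be read as expression. The same holds for Map4k1, with 10.8 and 26.2 CPM counted against up to 28.4 and 50.1. Mrps12 and Eml2 were above this ceiling in both libraries. Eml2 had 13 and 10 UMIs, or 12.8 and 10.9 CPM against at most 2.66 and 3.47, a ratio of -0.22 (-1.57 to 1.08), with too few UMIs to be called. Mrps12 had 69.7 CPM in the control and 110 in the cKO, where free RNA could give at most 26.5 and 28.0, and its ratio was 0.66 (0.21 to 1.12). Fam98c was above the ceiling only in the cKO, at 193 against 161 CPM, and below it in the control, at 67.8 against 135. Sertoli-gated barcodes held elongating-spermatid markers above their level in free RNA, so their member values are not read. In late spermatocytes the same bound was 15.9 and 5.08 CPM for Clasrp, against 135 and 40.0 counted. The room was smaller for some members in spermatogonia. There free RNA could give up to 32.7 and 9.40 of the 56.6 and 29.9 CPM of Clasrp, up to 10.6 and 20.3 of the 12.1 and 30.8 CPM of Map4k1, and up to 50.3 and 65.4 of the 79.5 and 121 CPM of Fam98c. Mrps12 stood well above its bound there, with 68.0 and 96.8 CPM against 9.85 and 11.4, as did the few UMIs of Zfp940. In early spermatocytes free RNA could give 9.41 and 16.1 of the 11.3 and 23.5 CPM of Map4k1. For Clasrp in that stage it could give up to 29.1 of 49.3 CPM in the control and 7.45 of 27.1 in the cKO. The part of free RNA in the ratios of those stages was not tested.

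The stretch from Npas1 to Zfp940 lists 400 genes, of which 184 were measured. Of the 174 that are not members, 16 were higher, 8 lower and 150 inside the fold, with a median of 0.07. The rest of chromosome 7 had 16 higher and 50 lower of 912 genes. Gm4969 had 272 UMIs in the control and 38 in the cKO, and Lgals7, a galectin gene, 187 and 32. Foxa3, a forkhead factor gene, had 114 and 193 UMIs, and the noncoding genes Gm32772 and Gm32846 had ratios of 1.10 and 1.09. The other genes in the first 10 by size were Zfp296 (0.86), the AP-1 gene Fosb (-0.81), the apolipoprotein gene Apoc1 (0.74), the kinase gene Prkd2 (0.71) and the incretin receptor gene Gipr (-0.69). Such genes were not spread evenly along the stretch. Between Npas1 and Psg19, 4 of 17 measured genes were higher and 0 lower. The 18 genes between Eml2 and Clasrp held 4 higher and 2 lower, and the 76 between Clasrp and Zfp607b held 7 higher and 2 lower. Between Zfp59 and Mrps12 none of 24 measured genes was past the fold, and between Fam98c and Zfp940 none of 12.

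**Figure D3:**
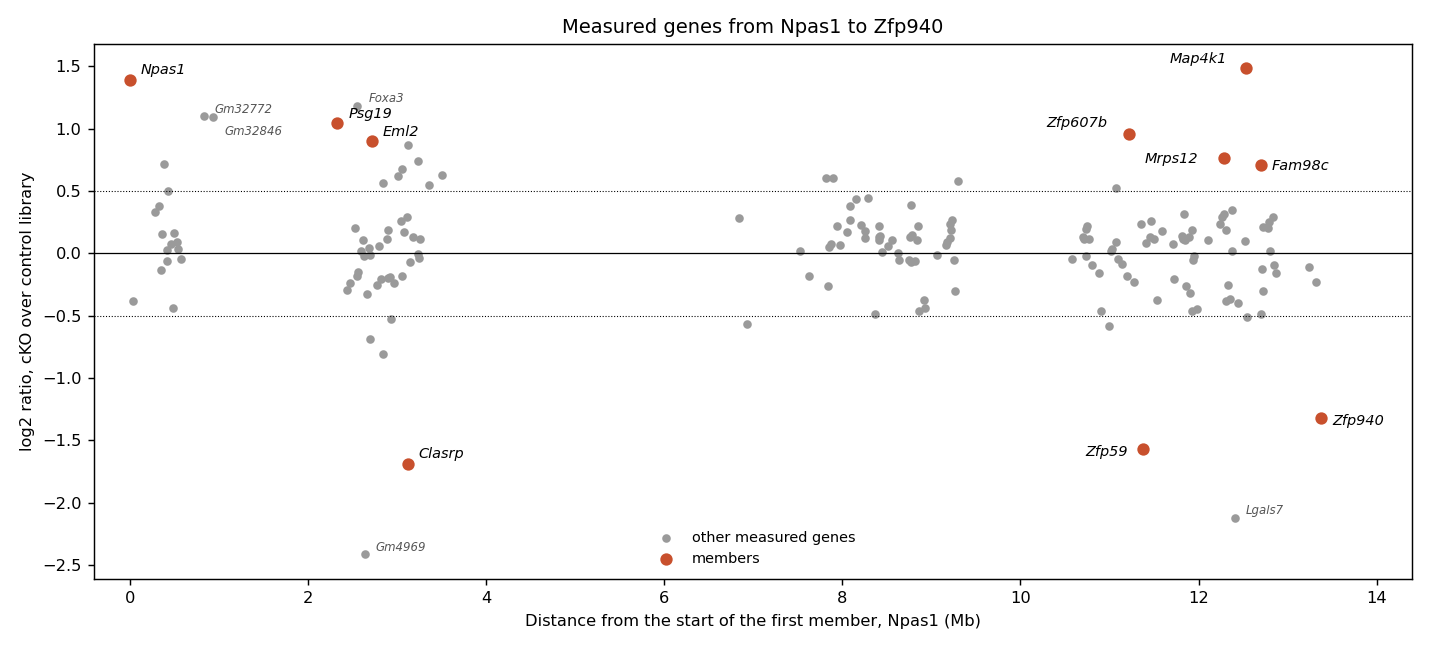
log2 ratio of cKO over control (vertical axis) for the 184 measured genes against distance in Mb from the start of Npas1, members in red and dotted lines at the fold of 0.5. Of the 174 grey points 150 lie between the lines, and higher and lower members are interleaved along the stretch.

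No immediate neighbour with enough UMIs was past the fold in the direction of its member. Over all measured genes only 1.75% were higher and 5.89% lower, so nothing is read from that. Eif3k, which starts 159 bases from Map4k1, had 298 and 319 CPM and a ratio of 0.10. Ryr1, whose end faces that of Map4k1 at 60 bases, had 2.39 and 1.68 CPM and a ratio of -0.51 (-0.79 to -0.24), opposite in sign to Map4k1. Map3k10, beside Zfp607b, had -0.18, and Sars2, beside Mrps12, had 0.31. Zfp296 ends 381 bases from the end of Clasrp and had 3.70 and 6.74 CPM, a ratio of 0.86 (0.69 to 1.04), opposite in sign to Clasrp. Spred3, behind the start of Fam98c, had -0.49. Gipr, beside Eml2, had -0.69, opposite in sign to Eml2. Fam98c also overlaps Rasgrp4, which had too few UMIs, and UMIs of overlapping genes may be split between them. No source used here gives the strand setting of the authors' counting.

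The counts by chromosome show how the members' chromosome stands among the others. Of 1096 measured genes on chromosome 7, 39 were higher (3.56%), against 1.36% over the other chromosomes, each of which had 2 to 17. With free RNA subtracted, 67 of the 1096 on chromosome 7 were higher and 715 of all 15411 measured genes, in place of 39 and 270. The count over all genes thus grew by the larger factor. The Y chromosome had a larger share than chromosome 7, 4 of 30 (13.3%). The share of lower genes was 5.57% on chromosome 7 and 6.00% elsewhere. In either direction the share was 9.12% on chromosome 7, and larger on chromosome 14 (10.8%), X (13.7%) and Y (20%). At a log2 ratio of 1 or more in size, which 0.5% of all measured genes passed, 6 of the 11 higher genes with a known place and 10 of 56 lower ones were on chromosome 7, and 6 members were among these 16. No other chromosome had more than 1 higher or 8 lower genes at that size. Of 284 windows of 5 Mb with at least 20 measured genes, the window from 15 to 20 Mb of chromosome 7, which holds Npas1, Psg19, Eml2 and Clasrp, ranked 1 by the share of higher genes, with 15 of 76. In either direction its share was 26.3%, below that of 1 window each on chromosomes 14 (38.1%), 19 (28.6%) and X (26.9%). The window from 25 to 30 Mb, with the other members, ranked 11. The members, chosen on this contrast, are in these counts. Without them the first window had 12 higher and 4 lower of 72 genes and still ranked 1 by the share of higher genes. The second had 3 higher and 4 lower of 93 and ranked 47. Their rank in either direction without the members was not computed. These windows were picked out because they hold the members, so the ranks are no independent check. Chromosome 7 without its members had 32 higher genes of 1086 (2.95%), and at a ratio of 1 it had 3 higher and 7 lower.

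**Figure D4:**
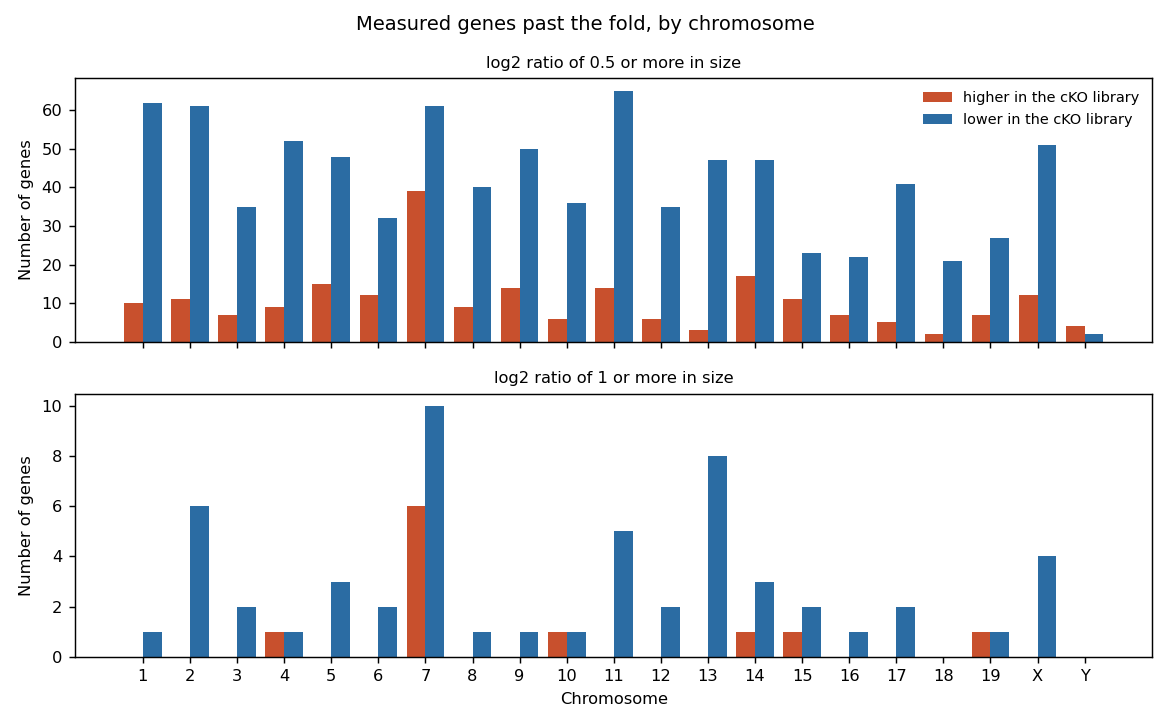
Number of measured genes past the fold (vertical axis) on each chromosome, higher in the cKO library in red and lower in blue, at a log2 ratio of 0.5 (top) and of 1 (bottom). Chromosome 7 has 39 higher genes in the top panel and 6 in the bottom one, where no other chromosome has more than 1.

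A stricter rule asked for a ratio of 0.5 in the same direction in late spermatocytes, round spermatids and elongating spermatids alike, and was added after seeing the data. Over all genes measured in the 3 stages 0.103% were higher and 2.2% lower. Map4k1 and Zfp607b were higher by this rule and Clasrp and Zfp59 lower, out of 7 members with enough UMIs in the 3 stages. Of the 10 genes with a known place that were higher, 5 were on chromosome 7: Foxa3, Map4k1, Nkpd1, Zfp296 and Zfp607b. All 5 lie between Npas1 and Zfp940, and 2 of them are members. Chromosome 19 had 4 higher genes of 371 by this rule, a larger share (1.08%) than the 5 of 841 on chromosome 7 (0.595%). Of lower genes chromosome 7 had 13 (1.55%, against 2.30% on the others), and in either direction 18 (2.14% against 2.35%).

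Relatives of the members by sequence or complex are given beside the 7.64% of all measured genes that were past the fold. Of 28 measured genes listed by an Mrps symbol, and not by a check of their protein, none was past the fold. They ran from -0.22 (Mrps36) to 0.26 (Mrps21), against 0.77 for Mrps12. Of the 63 measured zinc-finger genes of chromosome 7 beside the 3 members, Zfp296, Zfp93 and Zfp27 were higher and Zfp568 (-0.63) and Zfp977 (-1.04) lower. None of the 6 MAP4K kinases was past the fold. Of the 4 CLK kinases, Clk2 was lower, as Clasrp was, at -0.61. Of the 5 other EMAP-like genes only 3 had enough UMIs. These were Eml4 (-0.61), Eml5 (-0.84) and Eml6 (-0.504, just past the fold), all lower, where Eml2 was higher. Fam98a was lower, at -0.84, where Fam98c was higher. The other 12 PSG genes had 180 UMIs together and none was measured, and Npas3 stood at 0.00.

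Over the 10 values of stage and library, the genes with the profile most like Clasrp were Gm13853 (r = 0.93), Gm11639 (r = 0.92) and Cep89 (r = 0.86). Cep89, a centrosomal protein gene that is also on chromosome 7, had 93.6 CPM in the control and 61.6 in the cKO. Those most like Map4k1 were Gm48831 (r = 0.94), Ube2f (r = 0.93), a ubiquitin-like conjugating enzyme gene, and 4930477N07Rik (r = 0.92). These are Pearson values of log2(CPM + 1), and the points share 2 libraries.

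Open chromatin (by ATAC-seq) and H3K27me3 (by CUT&Tag) were profiled in sorted cKIT+ spermatogonia from 2 control and 3 cKO samples each, and played no part in choosing the members. A peak within 1000 bases of a start site was found in all 5 ATAC libraries at Clasrp, Map4k1, Zfp607b and Mrps12, 4 of the 9 members with a start site in the reference, beside 26.2% of all 27025 genes. At Clasrp the authors' fold enrichment of the peak was 5.17 and 6.23 in the controls and 4.72, 4.68 and 6.46 in the cKO. At Map4k1 it was 6.37 and 6.89 in the controls and 4.57, 5.03 and 6.40 in the cKO. The ranges of the genotypes overlap at both genes. Map4k1, Zfp607b and Mrps12 begin 159, 30 and 135 bases from a neighbour read in the opposite direction. Their peaks therefore cannot be assigned to the member alone. Zfp59 had a peak in both controls and in cKO 3, and Zfp940 in control 2 and cKO 3. Eml2 had one in both controls, cKO 2 and cKO 3, and Fam98c in control 2 and all 3 cKO libraries. The libraries differed in their number of peaks, from 14635 in cKO 1 and 18883 in cKO 2 to 40497 in cKO 3, with 19118 and 33250 in the controls, and the part of depth in this was not tested.

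H3K27me3 regions lay within 1000 bases of the Npas1 start site in all 5 libraries, as at 6.12% of all genes. Npas1 had no ATAC peak within 1000 bases in any of them. Eml2 had an H3K27me3 region within that distance in both controls and in cKO 3 and none in cKO 1 or cKO 2. Those 2 libraries listed 11118 and 14584 regions over the genome, the others 14545 to 18494. No other member with a start site had such a region there, and the IgG library had none at any of the 9, though at 5000 bases it had 1 at Eml2. An H3K27me3 region in at least 1 library was thus found within 1000 bases at 2 of the 9, beside 18.3% of all genes. Farther from the start site, within the gene, Map4k1 overlapped H3K27me3 regions in all 5 libraries (1 region in each but cKO 2, which had 2), and Zfp607b in cKO 3 only. The share of all genes with such an overlap was not computed, so nothing is read from it. Regions were called separately in each library by the authors, so a region listed in one library and not in another is no measured difference in the mark.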

How the data were processed

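Single-cell libraries of whole testis (10x Genomics, 1 control, 1 cKO) were deposited as UMI counts per gene for every barcode, made by the authors with Cell Ranger on mm10, per the file headers and the submitters' processing notes. ATAC peaks carry the fold enrichment and −log10 q-value that the authors' MACS2 gave, and H3K27me3 and IgG regions the signal from SEACR, per the submitters' processing notes. Here barcodes with at least 3000 UMIs were kept and no doublet caller was run; leaving out the deepest 5% was an alternative. Stages were gated on the number of marker genes detected and the percent of UMIs in elongating-spermatid genes. CPM ratios have exact 95% conditional binomial intervals and shares exact Clopper-Pearson ones, for counting error only (Python 3.11.15, scipy 1.17.1). A gene needed 200 UMIs, or 50 within a stage, and a log2 ratio of 0.5. No p-value was computed, since each genotype has 1 library. The ratio and peak search were tested on simulated data. Start sites, places and sequences are from RefSeq on GRCm38.p6; 14382 of the 15411 measured genes had a place. Bulk RNA-seq tables were not used, because the reference here does not pair their transcript identifiers with genes. The members and gene lists were chosen with earlier results of these data known. Named are all members, the relatives lists, the first 10 non-members of the stretch by size of ratio and the 3 genes most like Clasrp and Map4k1; Nkpd1 and the direct neighbours were added after their values were seen.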

Additional observations from a re-analysis of the deposited data

How the results depend on the processing

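All 10 members kept their direction and stayed past the fold when the barcode minimum was 1000, 2000 or 5000 UMIs, and with a filter of 500 genes and at most 10% mitochondrial UMIs. The same held without the deepest 5% of barcodes, with edgeR's TMM factors and without elongating-spermatid markers in the totals. It also held with equal stage shares and with free RNA subtracted, and by definition at a ratio of 0.3. All these settings use the libraries on which the members were chosen and are no independent check. At a ratio of 1, 6 were past it, and Zfp607b, Mrps12, Eml2 and Fam98c were not. Over the recomputations Clasrp ran from -1.80 to -1.65, Map4k1 from 1.37 to 1.61 and Mrps12 from 0.55 (equal stage shares) to 0.84. Chromosome 7 had 100 genes past the fold, 164 when 50 UMIs sufficed, 16 at a ratio of 1 and 18 under the 3-stage rule. Over all genes 270 were higher and 908 lower; with free RNA subtracted the counts were 715 and 1217, with equal stage shares 126 and 868, with 50 UMIs 618 and 1505, with no minimum 2628 and 4935, at a ratio of 0.3 1152 and 2662, and at a ratio of 1 14 and 63. The share of calls that were higher was thus 22.9% in the first case, 37.0% after subtraction and 12.7% with equal stage shares. A stricter stage gate gave 26 of 32 measured pairs past the fold in place of 30 of 37. Peaks at 4 members were found in all ATAC libraries at 1000 and at 5000 bases alike. No paired analysis was possible because the single-cell comparison has 1 library per genotype and comes from no test. The bulk testis fit and its alternatives (DESeq2, no filter, other controls, a replicate block, leaving out each replicate) were not run, for the reason given with the processing. Depth limits the scarce members: fewer than 50 UMIs over both libraries were counted for Npas1 and Psg19 before the spermatid stages, for Eml2 in spermatogonia and early spermatocytes, for Zfp940 there and in elongating spermatids, and for Zfp59 and Zfp607b in spermatogonia.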

Other observations

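Outside the stretch from Npas1 to Zfp940, 5 genes of chromosome 7 differed by a log2 ratio of 1 or more, and all 5 were lower in the cKO library. These were Lgi4 (-1.18), Gm12758 (-1.17), Zfp977 (-1.04), Fan1 (-1.05), a DNA crosslink repair nuclease gene, and the haemoglobin gene Hbb-bs (-1.08). Hbb-bs is itself one of the 4 blood markers and makes up 13.1 of their 22.1 CPM in the control and 6.18 of their 10.5 CPM in the cKO library.

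Chromosome 13 had 8 lower genes at that size of 586 measured (1.37%), against 10 of 1096 (0.912%) on chromosome 7, 7 without the members. They were chosen for mention after their values were seen. Histone genes made up most of them. Hist1h1a, a linker histone gene, had 4047 UMIs in the control and 961 in the cKO, a ratio of -1.65, and Hist1h2bm had -1.50, Hist1h1e -1.45, Hist1h1c -1.40, Hist1h2aa -1.22 and Hist1h2bb -1.20. The other members of that group were Gm30302 (-1.13) and Spata31d1c (-1.10).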
